A study of Bos taurus with 6 samples.

Results

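The sarcomeric myosin heavy chain genes measured here were MYH1, MYH2, MYH3, MYH6, MYH7, MYH7B and MYH8, which make up 7 of the 17258 genes named in the assembled transcriptomes. They were chosen by gene name, as the named myosin heavy chains of striated muscle. Longissimus dorsi muscle was taken at 18 months of age from 3 Shandong black cattle (B1, B2 and B3), a breed combining Japanese black, Luxi and Bohai black cattle, and from 3 Luxi cattle (L1, L2 and L3), a local yellow breed. Each animal gave 1 RNA library. The animals were fed to a common plan but came from 2 companies, so breed and company cannot be told apart. The study describes its black cattle as offspring of cloned animals, and no genotype beyond the breed was given.

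A myosin heavy chain is the motor protein of the thick filament, and the gene a muscle fibre uses largely sets how fast it contracts. MYH7 encodes the slow chain of type I fibres, which also serves the heart ventricle. MYH2 and MYH1 encode the fast chains of type IIa and type IIx fibres. MYH3 and MYH8 are the embryonic and perinatal chains, MYH6 is the alpha chain of the heart atrium, and MYH7B is an ancient slow-type chain of low abundance. Adult fibres often carry a mixture of these chains.

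The members lay in 3 places in the ARS-UCD1.2 cattle genome. MYH8 (29403330 to 29433354), MYH1 (29483025 to 29507379), MYH2 (29510066 to 29536488) and MYH3 (29601526 to 29622481) stood on the minus strand of chromosome 19. MYH7 (21488719 to 21510520) and MYH6 (21515113 to 21541925) were neighbours on the plus strand of chromosome 10, and MYH7B (64280694 to 64304978) was on the plus strand of chromosome 13. The merged reference exons of each member numbered between 38 and 42 and came to between 5996 and 6158 bases, so levels per length can be set side by side. The genes are close paralogs, and the part of reads shared between them was not tested.

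The libraries held between 14.08 and 14.62 Gb of aligned sequence in Shandong black cattle and between 17.52 and 17.99 Gb in Luxi cattle. The tissue label held up, since all 10 skeletal muscle markers reached an FPKM of 1, but their summed FPKM was 25087 in L1 against 47176 to 74384 in the other animals. L1 also correlated less with L2 and L3 across genes (Pearson r 0.878 and 0.894 on the log2 scale) than L2 did with L3 (0.947). Summed fat cell markers were 122 to 184 FPKM in Shandong black cattle and 5.39 to 20.8 in Luxi cattle, with all 8 markers lower in every Luxi animal. Summed fibroblast markers went the other way, from 106 to 157 in Shandong black cattle and from 353 to 467 in Luxi cattle, with 3 of 5 markers above in every Luxi animal. The sums of endothelium (16.97 to 18.1 against 22.5 to 63.4) and smooth muscle markers (71.0 to 84.5 against 100.5 to 149) were also higher in all Luxi animals, and that of nerve and glia markers was lower (47.7 to 120 against 7.58 to 27.3). The single markers were mixed. Every Luxi animal was above for 2 of 4 endothelium and 1 of 5 smooth muscle markers, and below for 1 of 3 nerve and glia markers. In L2 the smooth muscle sum held 47.0 from LMOD1, while ACTA2 (22.1) was below every Shandong black animal. The part of these differences in the results below was not tested, and in whole muscle fewer fibres of a type and less RNA per fibre cannot be told apart.

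Levels were measured as FPKM, fragments scaled to transcript length and to the size of the library. The first measure added up the FPKM of whole transcripts, those annotated to a gene plus unnamed assembled ones lying mostly on its exons. The second, the exon depth, took the sequence that fell on the reference exons of a gene from any same-strand transcript. It was added after the data had been seen, because assembled transcripts ran across neighbouring myosin genes. A gene was called when limma gave a Benjamini-Hochberg adjusted p under 0.05 over all genes tested and at least 1 unit of log2 fold change, Luxi minus Shandong black, on the log2(FPKM + 1) scale.

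With whole transcripts, none of the 5 members that passed the level filter was called, where 2.55% of the 9765 genes tested were. With exon depth, MYH7 was lower and MYH1 higher in Luxi cattle, 2 of the 6 members tested, where 3.17% of 9200 genes were called. Of all genes, 1.56% were called higher and 0.993% lower in Luxi cattle with whole transcripts, against 1.88% and 1.29% with exon depth. Leaving out L1 raised the exon depth count to 4 members, adding MYH6 and MYH8, where 670 of 9126 genes were called. Leaving out B1 or B3 took it to 0, where 33 of 9178 and 22 of 9182 genes were called. The member count thus moved in the same direction as that of all genes.

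**Figure D1:**
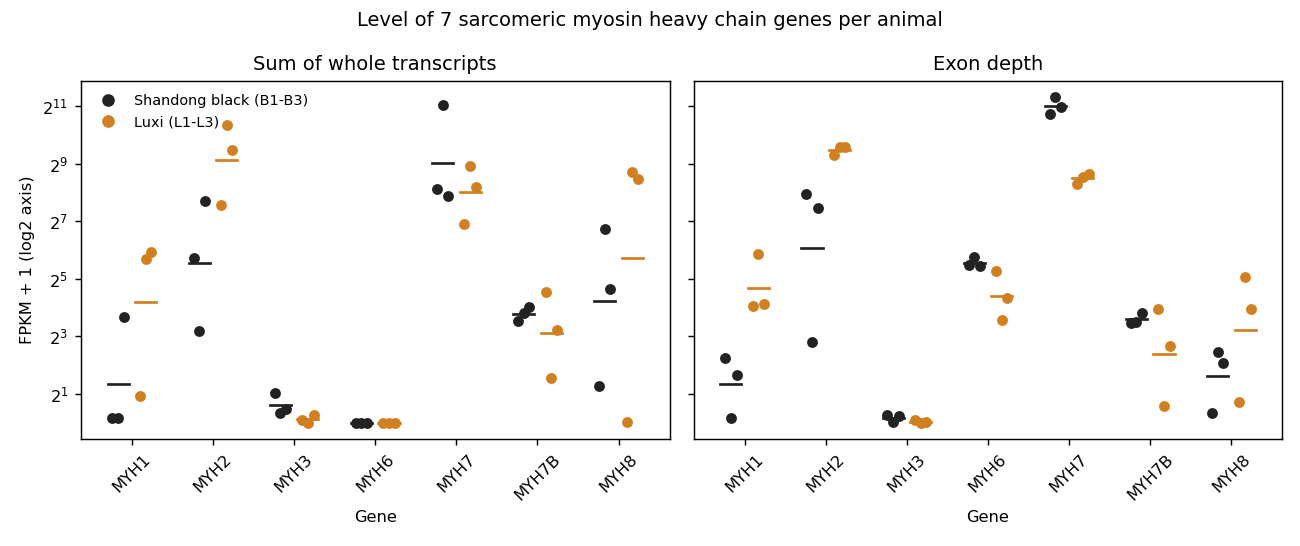
FPKM + 1 of each myosin heavy chain gene on a log2 axis, by whole transcripts (left) and by exon depth (right), with 1 point per animal and a line at the mean of the log2 values of each breed. By exon depth the MYH7 points of the breeds lie apart, from 1680 to 2528 in Shandong black cattle and from 316 to 397 in Luxi cattle, while by whole transcripts they mix.

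MYH7, the slow chain, was the most abundant member in every Shandong black animal by exon depth. Its exon depth was 1680, 2528 and 1993 FPKM in B1, B2 and B3 and 316, 372 and 397 in L1, L2 and L3. All Luxi animals were thus below all Shandong black animals, and the breeds did not overlap. The means were 2067 ± 429 and 361 ± 41.5 (SD, n = 3 each), a level 5.72 times as high in Shandong black cattle, and the log2 fold change was -2.50 (SE 0.33, limma adjusted p = 0.0135). The call was lost without B1 (adjusted p = 0.0649) or B3 (0.101), with the log2 fold change between -2.64 and -2.34 over the 6 fits that each left out 1 animal.

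By whole transcripts MYH7 gave another picture. The values were 280, 2097 and 235 FPKM in Shandong black cattle and 120, 479 and 289 in Luxi cattle, so the breeds overlapped. The log2 fold change was -1.01 (95% interval -3.13 to 1.10, limma adjusted p = 0.542). It was -0.0060 without B2, -0.47 without L1 and -1.58 without B3. Transcripts spanning MYH7 and its neighbour MYH6 carried 93.85% to 99.95% of the sequence on MYH7 exons. Those that lay mostly outside MYH7 exons were left out of the whole-transcript sum, and they carried 81.0% of the MYH7 exon sequence in B1, 87.4% in B3 and 65.6% in L1 but 0% in B2, L2 and L3.

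The lower MYH7 level in Luxi cattle ran along the gene. In 39 of its 40 exons every Luxi animal was below every Shandong black animal. At exon 5 the depth was 2964, 4863 and 3602 in Shandong black cattle and 593, 890 and 644 in Luxi cattle. The median over exons was 1441, 2022 and 1665 against 274, 293 and 356. Exons of 1 gene are not replicates, and these counts carry no test.

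**Figure D2:**
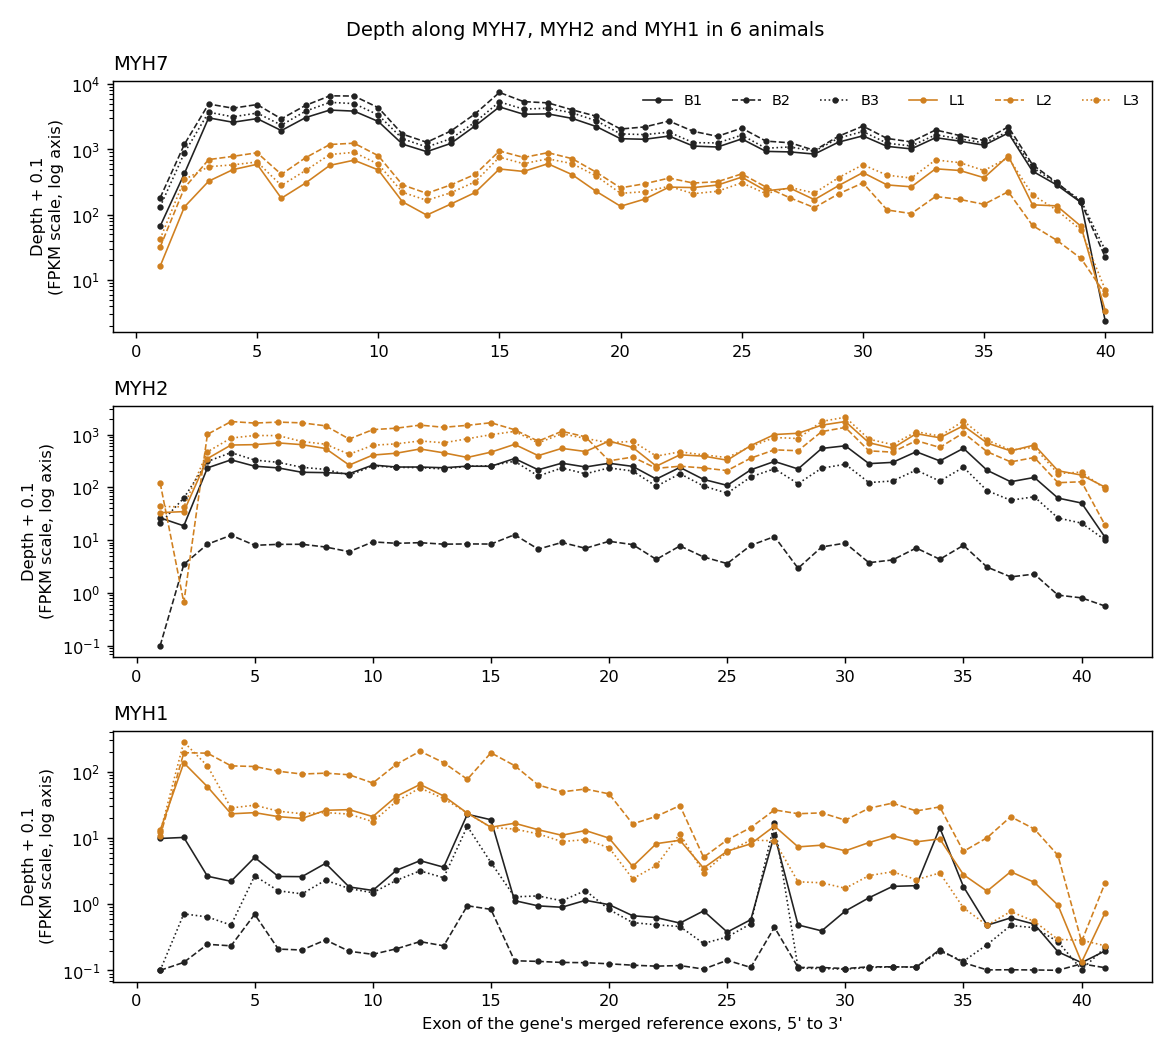
Depth + 0.1 on the FPKM scale (log axis) in each exon of MYH7, MYH2 and MYH1, ordered 5' to 3', with 1 line per animal. Luxi lines lie below Shandong black lines over 39 of 40 exons of MYH7 and above them over 40 of 41 exons of MYH2 and 36 of 41 of MYH1.

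MYH2, the fast IIa chain, went the opposite way without passing the test. Its exon depth was 248, 6.06 and 176 FPKM in B1, B2 and B3 and 632, 757 and 772 in L1, L2 and L3. All Luxi animals were above all Shandong black animals, and B2 was far below its breed. The means were 143 ± 124 and 720 ± 76.9 (SD, n = 3 each), and the log2 fold change was 3.41 (95% interval 0.58 to 6.23, limma adjusted p = 0.140). Without B2 it was 1.77 (adjusted p = 0.0688), and over the 6 fits that each left out 1 animal it reached 4.34, without B1. By whole transcripts MYH2 stood at 51.7, 8.19 and 209 against 188, 1284 and 706, with overlap between B3 and L1 and a log2 fold change of 3.57 (adjusted p = 0.136). Transcripts left out of that sum carried 76.4% of the MYH2 exon sequence in B1, 82.5% in L1 and 6.73% in B3. In B2, L2 and L3 they carried 0%. In 40 of 41 exons every Luxi animal was above every Shandong black animal, and B2 was low throughout, with a median over exons of 7.31.

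MYH1, the fast IIx chain, was far scarcer than MYH2. Its exon depth was 3.75, 0.12 and 2.13 FPKM in Shandong black cattle and 15.4, 57.8 and 16.3 in Luxi cattle, with no overlap. The log2 fold change was 3.32 (SE 0.64, limma adjusted p = 0.0346). Of the fits that each left out 1 animal, the call held without L1 (adjusted p = 0.0255) and was lost in the other 5 (up to 0.138). Transcripts that ran into another myosin gene carried 97.1%, 0% and 96.7% of the MYH1 exon sequence in B1, B2 and B3 and 94.4%, 17.1% and 64.5% in L1, L2 and L3. In B3, 50.3% of it lay in exon 27. By whole transcripts MYH1 was 0.114, 0.125 and 11.6 against 0.903, 51.0 and 59.7, with overlap and an adjusted p of 0.305.

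The composition of the myosin pool was read as the share of each gene in the summed FPKM of the 7 members. By whole transcripts MYH7 made up 81.2%, 94.3% and 47.5% in B1, B2 and B3 and 36.3%, 21.5% and 20.5% in L1, L2 and L3. By exon depth its share was 84.6%, 97.2% and 89.4% against 31.1%, 30.2% and 32.4%. The MYH7 share was lower in all Luxi animals by either measure, by 48.3 percentage points in whole transcripts and 59.2 in exon depth (exact two-sided permutation p = 0.1 for each). With 3 animals against 3 the exact test cannot go below 0.1.

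The MYH2 share moved against it. By exon depth it was 12.5%, 0.233% and 7.90% in Shandong black cattle and 62.2%, 61.5% and 63.1% in Luxi cattle (exact two-sided permutation p = 0.1). By whole transcripts it was 15.0%, 0.369% and 42.2% against 56.7%, 57.5% and 49.98% (exact p = 0.1). MYH7 exceeded MYH2 in every Shandong black animal, by a factor of 6.78, 417 and 11.3 in exon depth, and stood at 0.499, 0.491 and 0.514 of MYH2 in L1, L2 and L3. The order of these genes was therefore reversed between the breeds in each animal, and the same held for whole transcripts, where the ratio was 5.41, 256 and 1.12 against 0.639, 0.373 and 0.410. The whole-transcript shares and ratios lack the left-out MYH7 and MYH2 sequence given above, which differed widely between animals.

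**Figure D3:**
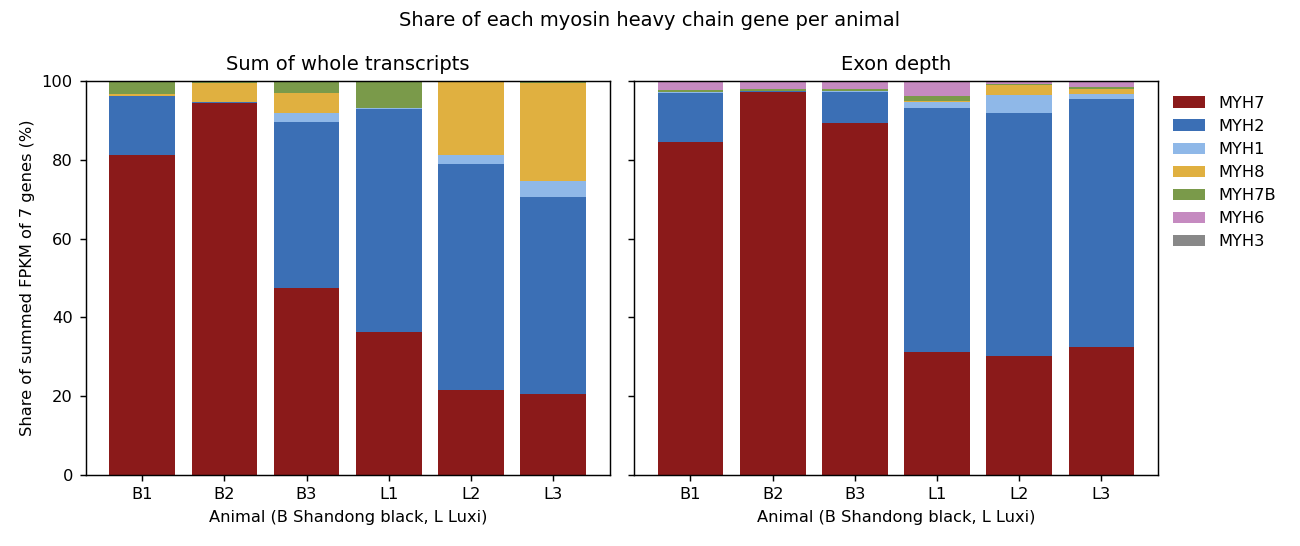
Share of each gene in the summed FPKM of the 7 myosin heavy chain genes (percent), 1 bar per animal, by whole transcripts (left) and by exon depth (right). The MYH7 segment covers 84.6% to 97.2% of the Shandong black bars and 30.2% to 32.4% of the Luxi bars by exon depth.

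The summed exon depth of the 7 members was 1985, 2602 and 2230 FPKM in Shandong black cattle and 1016, 1230 and 1224 in Luxi cattle (exact two-sided permutation p = 0.1). By whole transcripts the sums overlapped, at 345, 2223 and 495 against 331, 2231 and 1413 (exact p = 0.9).

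MYH6, the atrial chain, was listed at or near 0 by whole transcripts, at most 0.00169 FPKM. Its exon depth was 43.7, 52.6 and 42.2 in Shandong black cattle and 37.8, 10.8 and 19.0 in Luxi cattle, without overlap (log2 fold change -1.17, limma adjusted p = 0.136). That sequence was patchy. The median over exons was at most 4.45 in any animal, and 14.7% to 39.0% of the sequence lay in the deepest exon of each animal, which was exon 30 in all but L3. At least 99.99% of it came from transcripts that also covered MYH7.

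MYH8, the perinatal chain, was at 1.43, 104 and 23.9 FPKM in Shandong black cattle and 0.014, 415 and 349 in Luxi cattle by whole transcripts, a spread within each breed as wide as that between them (log2 fold change 1.51, limma adjusted p = 0.750). This level did not come from the length of the gene. In each animal 69.2% to 99.9% of the sequence on MYH8 exons lay in exon 27, which is 390 bases long. The median over exons was 0 in all animals but L1, where it was 0.0336. By exon depth MYH8 was 0.262, 4.44 and 3.26 against 0.627, 32.3 and 14.5 (adjusted p = 0.388).

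MYH7B was low in all animals. Its exon depth was 10.04, 10.2 and 13.1 FPKM in Shandong black cattle and 14.4, 0.504 and 5.35 in Luxi cattle, with L1 highest and L2 lowest of all 6 (log2 fold change -1.19, limma adjusted p = 0.357). MYH3, the embryonic chain, was under the level filter in both measures, at 1.04, 0.249 and 0.396 against 0.071, 0 and 0.217 by whole transcripts.

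**Figure D4:**
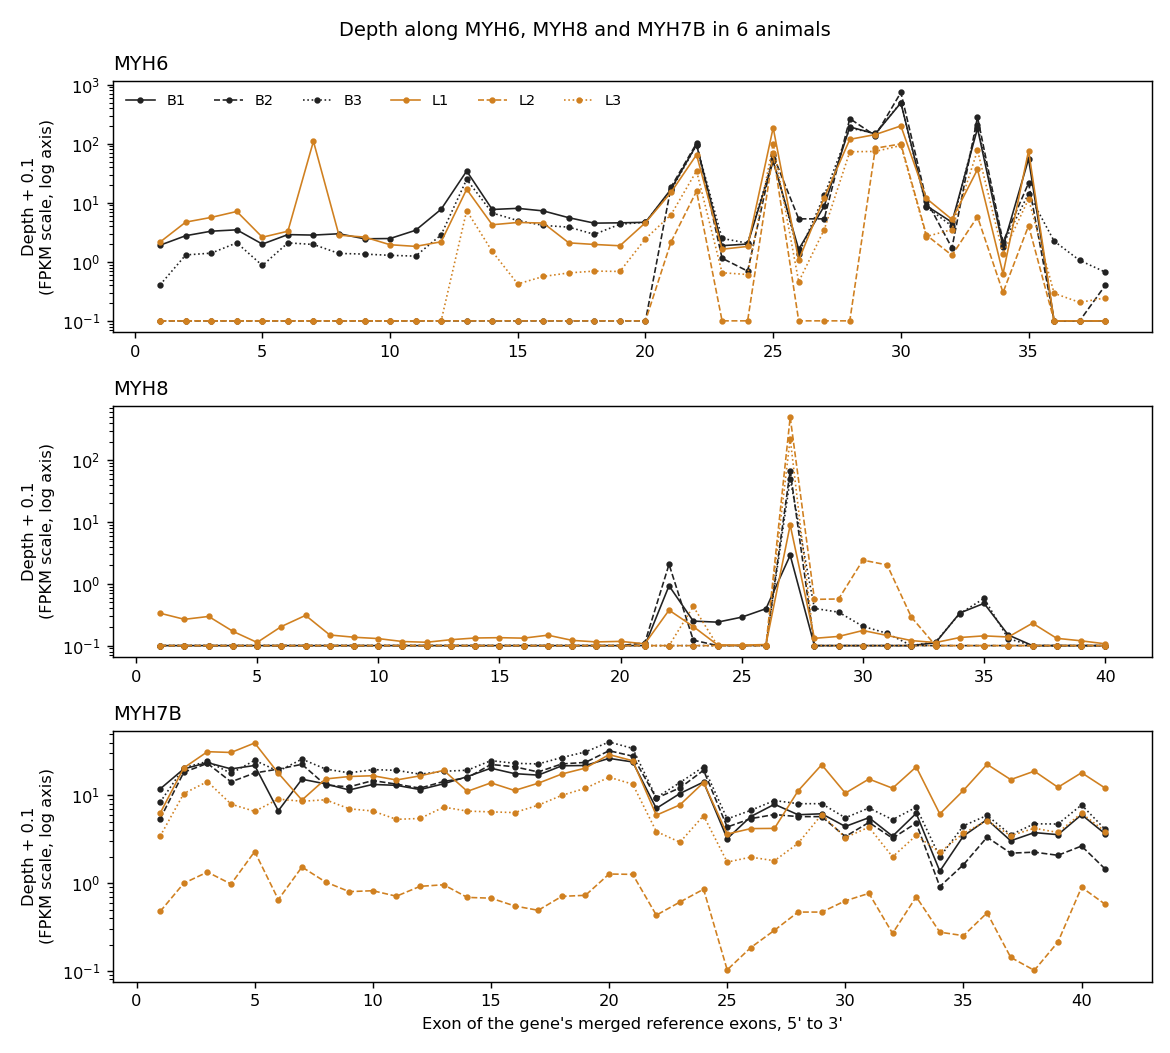
Depth + 0.1 on the FPKM scale (log axis) in each exon of MYH6, MYH8 and MYH7B, ordered 5' to 3', with 1 line per animal. MYH8 has a single peak at exon 27, up to 496 in L2, whereas MYH7B has sequence along its length.

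The order of the genes by mean exon depth differed between the breeds. In Shandong black cattle it was MYH7 (2067 FPKM), MYH2 (143), MYH6 (46.2), MYH7B (11.1), MYH8 (2.65), MYH1 (1.999) and MYH3 (0.128). In Luxi cattle it was MYH2 (720), MYH7 (361), MYH1 (29.8), MYH6 (22.5), MYH8 (15.8), MYH7B (6.76) and MYH3 (0.0263). Among neighbours in these orders, the ranges of MYH2 and MYH6, of MYH8 and MYH1 and of MYH1 and MYH3 overlapped in Shandong black cattle, and those of MYH1 and MYH6, of MYH6 and MYH8 and of MYH8 and MYH7B in Luxi cattle. The places of MYH6 and MYH8 rested on few exons: by the median over exons, averaged over the 6 animals, MYH6 was at 2.01 and MYH8 at 0.00561, below MYH7B (10.4) and MYH1 (8.64).

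The contractile partners of fast fibres include light chains, troponins and the calcium pump that work with fast myosin. All 9 tested of the 10 listed were higher in Luxi cattle. By exon depth none was called, where 1.88% of all genes were called higher. Their median log2 fold change by exon depth was 2.097 against 0.12 over all genes. Every Luxi animal was above every Shandong black animal for 6 of the 9, where 20.9% of all genes did so. That count depended on how the libraries were scaled: it was 2 of 9 with size factors and 6 with quantile normalization. The share of all genes was not worked out for these scalings. TNNT3, the fast troponin T, was at 114, 295 and 229 FPKM against 507, 1871 and 1396 (limma adjusted p = 0.0569). MYLPF, the fast regulatory light chain, was at 779, 2599 and 1519 against 2066, 10469 and 11155, with B2 above L1 (adjusted p = 0.150). TNNC2, the fast troponin C, was at 426, 1443 and 864 against 1491, 5081 and 4762 (adjusted p = 0.110). MYL1, the fast essential light chain, was at 800, 1075 and 1067 against 1087, 2952 and 3130 (adjusted p = 0.202). Without L1 all 9 were called, and so were more of all genes, with 504 of 9126 called higher. With whole transcripts the median was 1.82, and 3 of 9 did not overlap, where 20% of all genes had every Luxi animal above. By that measure 0 were called, where 1.56% of all genes were called higher. Without L1 it was 6, where 465 of 9697 genes were called higher.

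Among the slow fibre partners, 1 of 10 tested was called by exon depth, where 3.17% of all genes were called and 1.29% called lower. The log2 fold change was below 0 for 9 of them (median log2 fold change -1.81 by exon depth), and 7 had every Luxi animal below every Shandong black animal, where 10.1% of all genes did so. By whole transcripts the same count was 7, where 9.1% of all genes did so. TNNI1, the slow troponin I, fell and was the 1 gene called, at 283, 296 and 254 FPKM against 68.0, 28.5 and 91.2 (log2 fold change -2.28, limma adjusted p = 0.0323). MYL2, the slow regulatory light chain, was at 22390, 15222 and 18719 against 5223, 1361 and 7142 (adjusted p = 0.0925). TNNC1, the slow troponin C, was at 5067, 5050 and 5006 against 3585, 932 and 3798 (adjusted p = 0.301). MYL6B was at 2194, 1785 and 1976 against 99.3, 14.5 and 1004 (adjusted p = 0.108). MYL3, the slow essential light chain, went the other way, at 13.1, 46.4 and 26.7 against 1180, 63.5 and 244 (adjusted p = 0.0935).

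**Figure D5:**
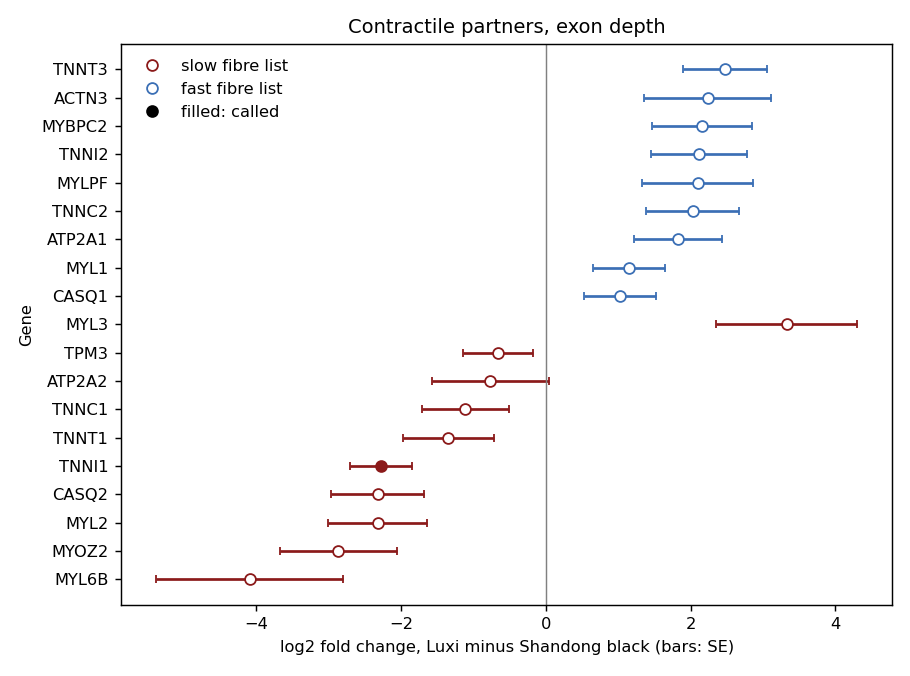
Log2 fold change of exon depth, Luxi minus Shandong black, of the tested fast and slow fibre partners, with the standard error as bars and a filled point for a called gene. The 9 fast fibre genes lie right of 0, and 9 of the 10 slow fibre genes lie left of it, with TNNI1 the filled point.

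Among thick filament partners, which hold or fold myosin, 3 of 12 tested were called lower by exon depth and none higher. Of all genes, 1.29% were called lower and 1.88% higher. The log2 fold change was below 0 for 9 partners and above 0 for 3 (median -0.39). Every Luxi animal was below every Shandong black animal for 5, where 10.1% of all genes did so. Every Luxi animal was above for 2, where 20.9% of all genes did so. MYOM3, an M-band protein, was at 260, 178 and 234 FPKM against 26.0, 16.7 and 32.1 (log2 fold change -3.15, limma adjusted p = 0.00509). MYBPH and TRIM54 were the others called (limma adjusted p = 0.0426 and 0.0365). By whole transcripts MYOM3 was the 1 gene called, where 0.993% of all genes were called lower. MYBPC1, the slow myosin binding protein C, was at 720, 661 and 662 against 481, 392 and 486 (adjusted p = 0.266). TTN (titin) and MYOM2 overlapped between the breeds (adjusted p = 0.753 and 0.847).

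The developmental and cardiac sarcomere list had 2 tested genes of 10 listed. ACTC1, the cardiac actin, fell, at 946, 279 and 735 FPKM against 5.53, 7.62 and 26.7 (log2 fold change -5.64, limma adjusted p = 0.00894). TNNT2, the cardiac troponin T, was at or under 2.83 in every animal (adjusted p = 0.120). Of 7 tested myogenic progenitor and fusion genes none was called, where 3.17% of all genes were. Their median log2 fold change was 0.01. MYOG, MYF6 and DES had adjusted p of 0.217, 0.131 and 0.408.

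Of 18 regulators of fibre type, 4 were called higher in Luxi cattle by exon depth and none lower, where 1.88% and 1.29% of all genes were. TBX1 and EYA1 were among the 4 but passed the level filter through Luxi cattle alone, so a difference was built into their choice. The log2 fold change was above 0 for 12 regulators and below 0 for 6. Every Luxi animal was above for 8, TBX1 and EYA1 among them, where 20.9% of all genes did so. Every Luxi animal was below for 3, where 10.1% of all genes did so. With size factors 3 regulators were called higher and 1 lower, where 143 and 168 of 9139 genes were. Quantile normalization also gave 3 and 1, where 155 and 188 of 9200 genes were called higher and lower. The replicate block gave 5 higher and 1 lower, where 237 and 145 of 9200 genes were. SOX6, a repressor of slow fibre genes, was at 0.788, 1.76 and 1.18 FPKM against 3.81, 6.18 and 4.78 (log2 fold change 1.40, limma adjusted p = 0.0226). TBX1 was at 0.872, 0.839 and 1.17 against 10.3, 14.8 and 8.86. EYA1 was at 0.171, 0.857 and 0.415 against 1.51, 3.80 and 2.99. TBX15, a regulator of fast fibres, rose as well (adjusted p = 0.0438). MEF2C and VGLL2, among the 3 most abundant regulators, were not called (adjusted p = 0.374 and 0.0705). PPARGC1A, a PPARG coactivator, was at 1.07, 1.47 and 1.38 against 20.9, 4.41 and 4.50. It was above in every Luxi animal and not called (log2 fold change 1.91, limma adjusted p = 0.0718). NFATC1 was also above in every Luxi animal and not called (adjusted p = 0.0862). By whole transcripts 2 regulators were called, both higher, where 1.56% of all genes were called higher. These were TBX1 (limma adjusted p = 0.0195) and SOX6 (0.0203), and they passed the filter in each breed. EYA1 again passed it through Luxi cattle alone and was not called (adjusted p = 0.0576).

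Of the other class II myosin heavy chains, which serve nonmuscle and smooth muscle cells, 4 were tested. MYH10, a nonmuscle chain, fell, at 23.6, 6.58 and 16.1 FPKM against 3.03, 1.01 and 1.75 (log2 fold change -2.39, limma adjusted p = 0.0318). MYH9 and MYH14 were lower in every Luxi animal without passing the test (adjusted p = 0.0578 and 0.114). MYH11, the smooth muscle chain, was at 1.29, 1.66 and 1.77 against 7.20, 2.21 and 6.93, every Luxi animal above (log2 fold change 1.21, adjusted p = 0.0923).

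Of the partner genes called by exon depth, MYOM3 and TBX1 stayed called in all 6 fits that each left out 1 animal. EYA1 stayed called in 1 of the 6, the fit without L1 (limma adjusted p up to 0.170 in the others). ACTC1 was lost without B3 (limma adjusted p = 0.0543), and TNNI1 without B1, B2 or B3 (up to 0.138). SOX6, TBX15, TRIM54 and MYH10 were lost without B1, B3, L2 or L3, and MYBPH without B1, B2, B3 or L2.

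The genes most like a member over the 6 animals were found by Pearson correlation of log2(FPKM + 1), which follows breed and library alike. By whole transcripts, over 2166 genes, they were ASB12 (r = 0.993), HNRNPL, STK11, API5 and TPM1 for MYH2. For MYH7 they were SH3GLB1 (r = 0.961), ZC3H14, ECH1, CDC123 and TLN2, and for MYH8 they included LINGO1 (r = 0.986), EPS15 and EIF4EBP1. By exon depth, over 1944 genes, the nearest to MYH7 was CAT, catalase (r = 0.992), followed by BLVRB, PPID, AOX1 and LGALSL, so the genes named depended on how MYH7 was measured.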

How the data were processed

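RNA was sequenced from longissimus dorsi of 3 Shandong black and 3 Luxi cattle, 1 library per animal. The authors cleaned the reads (Fastp), used HISAT for alignment against ARS-UCD1.2, and assembled transcripts with StringTie (version 1.3.3b per the file headers, which also give a strand setting). The deposited files hold, per transcript and exon, coverage, and per transcript FPKM and TPM, so no read counts were used and counting error is unknown. Another statement of the StringTie version differs from the headers.

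Here gene FPKM was the sum over named transcripts plus unnamed ones with at least 50% of bases on the exons of the gene, same strand. Exon depth used all sequence of same-strand transcripts on those exons, with no minimum overlap. A minimum of 50 bases applied only where the sequence from spanning or left-out transcripts was worked out. Genes whose mean FPKM reached 1 in either breed were tested on log2(FPKM + 1) with limma 3.58.1 in R 4.3.3, with a variance trend; calls needed an adjusted p below 0.05 and a log2 change of 1 or more in size. Shares were compared with the exact permutation test (Python 3.11.15). The fit was tested on simulated data. All 7 members are named, and from each list the called genes, the 3 most abundant and some others. A few genes that this rule or the correlation would name are not reported here. The members and lists were chosen with earlier results of these data known, and exon depth after the data were seen. Cuffdiff, used by the authors, needs alignments and was not run. MYH4 and MYH13 are not analysed here. Alternatives were pseudocounts, filters, TPM, size factors, quantile normalization, no trend, a replicate block, reference transcripts alone, other minimum shares and leaving out each animal.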

Additional observations from a re-analysis of the deposited data

How the results depend on the processing

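Under the alternatives to the whole-transcript fit no member was called by whole transcripts, and exon depth called 2. With whole transcripts 249 genes were called. The count became 65 without a filter, 139 with a mean FPKM of at least 5, 134 with a replicate block and 162 with reference transcripts alone. It ranged from 3 to 591 when each animal was left out. Same-numbered animals deviated together with r of 0.0905, 0.0899 and 0.0816, so the numbers were not taken to pair them. By exon depth 292 genes were called (22 to 670 when an animal was left out), and members called ranged from 0 to 4. Under the block 1 member was called, where 382 genes were. The block left MYH1 at 3.32 with an adjusted p of 0.0527. Leaving out an animal gave 2.72 to 3.77 for MYH1 and -2.64 to -2.34 for MYH7 by exon depth. By whole transcripts MYH7B ranged from -1.40 to 0.11 when an animal was left out, reversing without L2, and MYH8 to -1.92 at a minimum share of 80%, where the difference in MYH8 share reversed to -4.38 points. The difference in MYH2 share reversed to -7.82 points with reference transcripts alone. The MYH1 share difference, 1.47 points by whole transcripts, was 44.2 with reference transcripts alone, where the MYH7 shares of the breeds overlapped (difference -35.1). The MYH8 share difference, 11.1 points, was 1.18 by exon depth, 0.927 by sequenced bases and 0.0137 with reference transcripts alone. Left-out animals gave share differences from 0.486 to 2.46 points for MYH1, 26.1 to 47.1 for MYH2, -61.7 to -38.3 for MYH7 and 5.99 to 18.3 for MYH8.

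List medians moved as follows. With reference transcripts alone they were -0.28 for other class II chains, -0.79 for thick filament partners and 0.071 for regulators, which were 0.16 under quantile normalization. The developmental list, of few genes, was -0.27 with size factors, and the progenitor list reversed to 0.0069 by exon depth. By whole transcripts, leaving out an animal gave -0.87 to -0.72 for other class II chains, 1.26 to 2.89 for fast partners, -2.25 to -1.02 for slow partners, -2.77 to -0.033 for the developmental list, -0.38 to 0.18 for progenitors, -0.65 to -0.45 for thick filament partners and 0.17 to 0.49 for regulators. By exon depth the thick filament range was -0.55 to -0.28. The causes were not tested.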

Other observations

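Transcripts on the opposite strand of MYH7 summed to 14.9, 15.7 and 14.5 FPKM in B1, B2 and B3 and to 3.93, 1.21 and 2.29 in L1, L2 and L3. On the opposite strand of MYH7B the sums were 13.5, 12.0 and 14.6 against 10.3, 23.7 and 21.8. These transcripts had no place in the comparisons above.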
